A study of Mus musculus with 2 samples.

Results

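The endosomal sorting genes of the mouse blastocyst were examined in its inner cell mass (ICM) and in the whole embryo. They comprised the genes of the deposited table whose symbol begins with Vps, Snx or Chmp followed by a digit, together with Hgs, Tsg101, Stam and Stam2. The rule matched 75 of 19559 listed genes. Members were matched by name alone, and the rule was chosen with earlier results of these data known.

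The series holds 2 RNA-seq libraries of embryos at E3.75, 1 of whole blastocysts and 1 of ICMs freed by immunosurgery, in which antibody and complement lyse the outer cells. In both groups the dams were B6CBAF1 and the sires CD-1, and the labels name no transgene or treatment. The number of embryos behind a library was not learned (not given in the sources used here). Each whole blastocyst contains its own ICM, so a ratio of ICM to blastocyst compares a part with the whole, and fewer cells of a type cannot be told apart from less RNA per cell.

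Endosomes sort internalised membrane proteins either back to the surface and the Golgi or onward to the lysosome. Retromer and the sorting nexins, which bind endosomal phosphoinositides through a PX domain, make the tubules of the return routes. ESCRT complexes cluster ubiquitinated cargo and bud it into the endosome lumen. ESCRT-III and the VPS4 ATPases also cut the membrane bridge at the end of cell division. HOPS, CORVET and GARP tether vesicles before fusion. The outer trophectoderm of the blastocyst is a polarised absorptive epithelium with an active endocytic system.

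Listed genes held 9271198 reads in the whole-blastocyst library and 4125479 in that of the ICM. The members took 73281 reads (0.79%) and 28297 reads (0.686%) of these. Each group is 1 library, without replicates, and no test of the conditions was made. The intervals below are exact conditional 95% intervals of the ratio of 2 RPKM values, from the read counts, and they cover counting error only. All 10 trophectoderm markers, Cdx2, Gata3 and Krt18 among them, were at least 2-fold lower in the ICM library. Their summed RPKM was 2368 and 75.8, and Elf5 had no ICM read. All 7 epiblast markers were higher there, 6 of them at least 2-fold, and of 4 primitive endoderm markers 3 were at least 2-fold higher, whereas Gata6 was not. Of 5 blood and immune markers, 4 were listed and none reached an RPKM of 1. Of 5 cumulus and uterine markers, 4 did, and their summed RPKM was 44.1 and 3.83. Cyp11a1 had 324 and 0 reads, Cyp19a1 0 and 91, and Amh none in either. The part of any of these cells in the values of the members was not tested.

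RPKM is a read count divided by a gene length and by a library total. The quotient of read count and RPKM stepped in whole bases for all genes with a read (within 0.05 of a base). Read in this way, the totals behind RPKM were 45011450 reads for the whole blastocyst and 37920430 for the ICM. Of 6952 genes with 50 or more blastocyst reads, 5741 (82.6%) had a length within 5% of a last exon of the gene in the GENCODE M21 annotation, and 1001 (14.4%) one within 5% of a whole transcript. Among the members this held for the last exon of 54 of the 72 with a read. For Vps13b, a protein of great length, the length was 1374 bases, its nearest last exon is 1375 and its longest transcript 13757. Levels of different genes are therefore compared per base of a length that mostly is the last exon, and whether reads elsewhere in the transcript were counted was not tested. The ratio of the libraries for 1 gene does not depend on the length.

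Members with matches to one promoter motif are shown first, beside a paralog that lacks it. The motif GTCACGTG extends the E-box CACGTG and is the left part of the palindromic CLEAR element, through which TFEB and related factors regulate lysosomal genes. Of the 75 members, 51 had a RefSeq promoter window of assembly GRCm38.p6 (250 bases before to 50 after a start site, 62 windows). On either strand, CACGTG stood in 7 of these windows (11.3%) and in 7.15% of all 32851 windows. GTCACGTG stood in 4 member windows (6.45%) and in 738 of all windows (2.25%). The 4 windows belong to Vps26a, Vps33a and Vps16. Windows of the files' own build, mm9, were not used here. The retromer subunit gene Vps26a is shown beside its paralog Vps26b, whose window has no CACGTG, and the HOPS subunit genes Vps33a and Vps16 beside Snx18, which has CACGTG alone. Capitals mark CACGTG and the bases that extend it to GTCACGTG or its reverse complement, and all are written 5′ to 3′ on the gene's strand. The coordinates are chr10:62486756-62487055 (minus strand) for Vps26a, chr9:27030045-27030344 (minus) for Vps26b, chr5:123572966-123573265 (minus) for Vps33a, chr2:130424070-130424369 (plus) for Vps16 and chr13:113618515-113618814 (minus) for Snx18.
Vps26a: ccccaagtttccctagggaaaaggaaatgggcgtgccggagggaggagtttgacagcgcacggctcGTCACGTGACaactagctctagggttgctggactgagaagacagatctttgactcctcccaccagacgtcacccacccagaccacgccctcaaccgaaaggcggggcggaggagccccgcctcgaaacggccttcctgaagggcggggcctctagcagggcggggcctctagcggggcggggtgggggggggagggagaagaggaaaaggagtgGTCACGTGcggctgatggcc
Vps26b: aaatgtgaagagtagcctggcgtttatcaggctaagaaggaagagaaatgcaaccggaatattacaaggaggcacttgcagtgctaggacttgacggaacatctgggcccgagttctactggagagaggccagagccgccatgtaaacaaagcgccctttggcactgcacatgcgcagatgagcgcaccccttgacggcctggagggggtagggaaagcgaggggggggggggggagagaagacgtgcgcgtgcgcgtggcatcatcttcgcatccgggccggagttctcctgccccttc
Vps33a: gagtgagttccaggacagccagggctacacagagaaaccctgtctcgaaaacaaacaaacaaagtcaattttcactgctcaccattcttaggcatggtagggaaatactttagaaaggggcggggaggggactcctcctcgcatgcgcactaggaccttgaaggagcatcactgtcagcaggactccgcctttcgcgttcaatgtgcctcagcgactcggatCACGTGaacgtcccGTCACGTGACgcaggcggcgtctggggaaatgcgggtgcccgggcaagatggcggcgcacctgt
Vps16: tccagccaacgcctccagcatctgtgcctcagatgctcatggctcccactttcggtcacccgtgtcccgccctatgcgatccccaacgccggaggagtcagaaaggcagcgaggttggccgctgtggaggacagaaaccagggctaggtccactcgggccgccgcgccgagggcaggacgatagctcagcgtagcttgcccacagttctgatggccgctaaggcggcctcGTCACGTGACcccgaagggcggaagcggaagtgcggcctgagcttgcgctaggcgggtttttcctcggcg
Snx18: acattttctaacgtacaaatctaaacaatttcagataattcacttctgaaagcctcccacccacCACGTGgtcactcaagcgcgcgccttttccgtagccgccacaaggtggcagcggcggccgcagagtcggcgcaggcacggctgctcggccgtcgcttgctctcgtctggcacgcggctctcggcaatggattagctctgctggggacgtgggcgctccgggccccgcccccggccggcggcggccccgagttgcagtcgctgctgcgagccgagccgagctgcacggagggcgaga

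In the deposited values Vps26a, Vps33a and Vps16 were all lower in the ICM (ratios 0.333, 0.355 and 0.451), Vps26b was near even (0.957) and Snx18 was higher (3.43). The other members with CACGTG alone were Snx5 (0.895) and Snx8 (0.398). Of the 64 members that reached an RPKM of 1 in a library, 52 had a lower RPKM in the ICM. Snx18 is 1 of only 3 that were at least 2-fold higher. The genes whose windows are shown were picked by hand, outside the plan and with results of these data known. The contrast between their ratios is therefore no result about the motif. The matches are a description of letters in these windows, and their relation to the levels was not tested. In all, 7 motifs are given, each searched on both strands. The TEAD motif GGAATG stood in 9.68% of member windows and 14.7% of all windows, and the AP-1 motif TGACTCA in 4.84% and 5.2%. The ETS motif CCGGAAG stood in 24.2% and 8.86%, in 13 members on both sides of the comparison, such as Chmp5 (ratio 0.339) and Vps25 (1.36). The YY1 core GCCAT and the longer CCATNTT stood in 51.6% and 9.68% of member windows and in 40.5% and 16.1% of all windows. Member windows had a median GC content of 63.3% compared with 52.7% over all windows.

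Most endosomal sorting genes were lower in the ICM library, as were most genes of the transcriptome. Differences were taken as log2((ICM RPKM + 1)/(blastocyst RPKM + 1)), and a difference of -1 or less, or of 1 or more, is called at least 2-fold lower or higher. The pseudocount of 1 makes this stricter than the plain ratio for low genes. An RPKM of 1 was reached in either library by 64 members, by 53 of them in both libraries, by 9 only in the whole blastocyst and by 2 only in the ICM. Of the 64, 33 (51.6%) were at least 2-fold lower, beside 44.0% of the 8981 genes measured in the same way. At least 2-fold higher were 3 members (4.7%), beside 8.96% of all. The other 28 had differences between -1 and 1, although some, such as Stam2 (ratio 0.425), were past 2-fold by the plain ratio. The median difference was -1.06 over the 64 members, also with members without an ICM read at a floor of 3 reads, and -0.84 over all genes. The 9 members measured through the whole blastocyst alone, the library where they are high, were all called lower, and Vps8, 1 of the 2 measured through the ICM alone, was called higher. The 9 were Vps37b, Vps37c, Chmp4c, Snx11, Snx19, Snx24, Vps39, Vps45 and Vps52. Among the 53 with an RPKM of 1 in each library, a limit chosen after seeing the data, 24 were called lower and 2 higher, beside 36.5% and 4.8% of the 6036 genes that met it. Under each of these limits the share of members called lower lay above that of all genes, by an amount for which no test was made.

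Over the 3013 genes that reached an RPKM of 5 in each library the median difference was -0.66. Relative to this shift, 10 members were at least 2-fold lower (15.6%, beside 20.5% of all genes) and 8 at least 2-fold higher (12.5%, beside 16.9%). Values relative to the shift are called centred below, and centring multiplies each ratio by 1.58. The class counts below stand beside the same shares of all genes, 44.0% lower and 8.96% higher as deposited, and 20.5% and 16.9% centred. By counting error alone, the interval lay below a ratio of 1 for 48 of the 64 members (70.4% of all genes) and above it for 7 (18.6% of all genes). For the other 9 it spanned 1. Set against the median ratio of the 3013 genes in place of 1, the interval lay below for 35 members (51.6% of all genes) and above for 19 (33.5% of all genes). The 3 members at least 2-fold higher were Snx18, Snx10 and Vps8. Those added by centring were Vps25, Snx6, Vps13a, Vps13c and Vps13d.

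**Figure D1:**
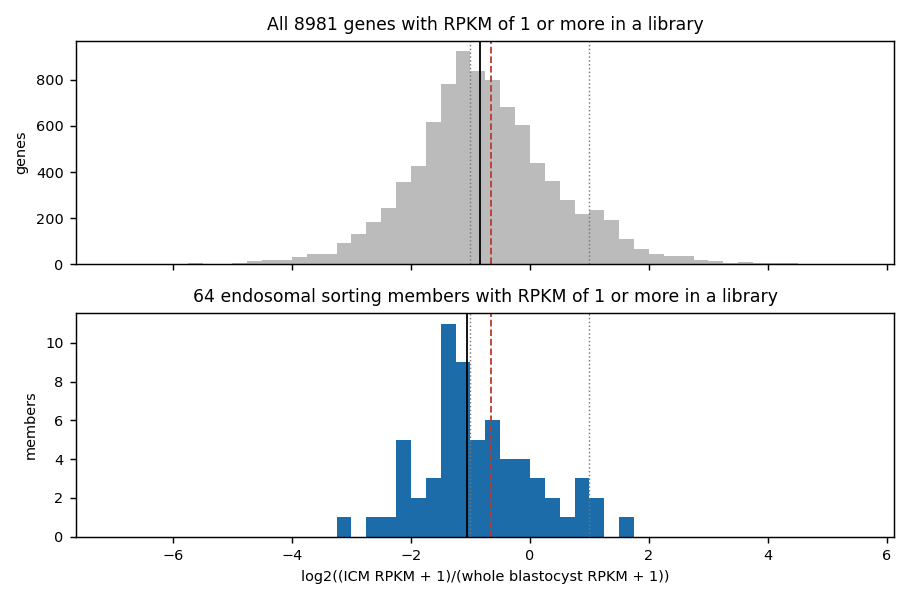
Histograms of log2((ICM RPKM + 1)/(whole-blastocyst RPKM + 1)) in bins of 0.25 for all 8981 measured genes (top) and for 64 endosomal sorting members (bottom). Solid lines mark the medians (-0.84 and -1.06), the dashed line the shift of -0.66, and dotted lines differences of -1 and 1; the members lie inside the range of the other genes.

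Of the 75 symbols, 11 stayed under an RPKM of 1 in both libraries, at most 0.952 and 29 reads. Tsg101, the ESCRT-I subunit that receives cargo from ESCRT-0, was the highest of them with 29 and 24 reads (RPKM 0.952 and 0.935), close to even with a wide interval (ratio 0.982, 0.547 to 1.75). Vps37d, Snx20 and Snx31 had no read in either library. Snx21, Snx29, Snx33 and Snx26 had at most 4 reads in a library. Snx25 had 1 and 13 reads and Snx32 0 and 9. Vps72, which had 17 and 3, is a subunit of chromatin remodelling complexes and shares only the letters of its name with the sorting machinery.

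ESCRT-0 captures ubiquitinated cargo on the endosome. With the pseudocount of 1, none of its 3 genes was called at least 2-fold lower in the ICM library, and their median difference was -0.40. Hgs, which encodes the scaffold HRS, had 108 and 97 reads and RPKM values of 4.03 and 4.30 (ratio 1.07, 0.802 to 1.42). Stam, its signal-transducing partner, had 11.6 and 8.51 (ratio 0.736, 0.668 to 0.811). Stam2 had 5.57 and 2.37 (0.425, 0.365 to 0.492). It was 2.36-fold lower by the plain ratio (2.03 to 2.74), with a difference of -0.97 after the pseudocount. The ratios of Stam and Stam2 differed by a factor of 1.73 (1.45 to 2.07). Only the interval of Hgs spans 1.

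Of the 4 ESCRT-I genes with an RPKM of 1, 3 were at least 2-fold lower, all of them VPS37 variants, which are alternative subunits of the complex. Vps37b and Vps37c were measured through the whole blastocyst alone. Vps37a had 10.8 and 4.20 (2.57-fold lower, 2.36 to 2.79). Vps37b rested on 188 and 24 reads, RPKM 1.99 and 0.302, and Vps37c on 125 and 8, RPKM 1.47 and 0.111. Their plain ratios were 0.152 (0.0947 to 0.232) and 0.0760 (0.0321 to 0.154). Vps28, the subunit that contacts ESCRT-II, had 20.01 and 13.9 (ratio 0.694, 0.558 to 0.860). It is the one ESCRT-I gene with an RPKM of 5 in each library, and its difference was -0.50 beside a median of -1.16 over the 4. In the GENCODE annotation the last exons of Vps37a and Vps37b overlap exons of Mtmr7 and of Hip1r on the opposite strand, and strand may or may not have been used in counting (not given in the sources used here).

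ESCRT-II, which links ESCRT-I to ESCRT-III, had 2 measured genes that lay on opposite sides. Vps25 had 746 and 852 reads, RPKM 26.1 and 35.3 (ratio 1.36, 1.23 to 1.498). Vps36, whose product binds ubiquitin, had 207 and 43 reads, RPKM 23.2 and 5.73, and was 4.06-fold lower (2.91 to 5.77). The products of both genes sit in the same complex, with the third subunit Snf8 at 11.4 and 8.92 (ratio 0.780, 0.570 to 1.06). The last exon of Vps25 overlaps exons of Ramp2 on the same strand, so reads of the 2 genes can be mixed. The length behind the RPKM of Vps36 was 198 bases and matched none of its last exons within 5%.

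Genes of ESCRT-III, the filaments that constrict the membrane neck, were mostly lower in the ICM library. Of 10 genes, Vps24 (now named Chmp3) included, 7 were called lower and none higher (1 and none centred). The highest levels were those of Chmp5, with 133.1 against 45.1 (2.95-fold lower in the ICM, 2.77 to 3.15), and Chmp2a, with 114.0 and 49.3 (2.31-fold, 2.04 to 2.63). Chmp5 and Chmp2a also had the top levels of this complex in the ICM. For Chmp2a a gene model, Gm8185, is at least 95% identical over at least 50% of the last exon, so its reads are uncertain. Chmp1a had 23.6 and 8.24 (ratio 0.349), Chmp1b 32.9 and 14.5 (0.440) and Vps24 20.3 and 7.37 (0.362). Chmp1a, Chmp1b, Vps24 and Chmp5 thus lay in a narrow band of ratios between 0.339 and 0.440.

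Chmp2b stood apart from its paralog. It had 2384 and 294 reads, RPKM 47.4 and 6.94, and was 6.83-fold lower (6.05 to 7.74), the largest ESCRT difference on the scale used and the one ESCRT-III gene still 2-fold lower when centred. Chmp4b, the main subunit of the filament, had 21.4 and 15.3 (ratio 0.714, 0.636 to 0.800). Its paralog Chmp4c, which takes part in the abscission checkpoint, had 202 and 35 reads, RPKM 4.11 and 0.844 (ratio 0.206, 0.139 to 0.296). The last exons of Chmp4c and of the sorting nexin gene Snx16 overlap on opposite strands. Chmp7, which acts at the reforming nuclear envelope, had 10.8 and 6.37 (0.589, 0.513 to 0.675). Chmp6, the subunit that ESCRT-II recruits, was low at 1.62 and 2.15 with an interval spanning 1 (1.33, 0.945 to 1.86).

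The ATPases that disassemble ESCRT-III were lower in the ICM in both forms as deposited. Vps4b had 27.9 and 10.1 (2.75-fold lower, 2.52 to 2.998) and Vps4a 8.43 and 5.08 (1.66-fold, 1.35 to 2.05). The length behind the RPKM of Vps4b matched no last exon, so the levels of the 2 genes are not compared. Centred, both were within 2-fold, with differences of -0.715 for Vps4b and 0.02 for Vps4a, so Vps4a was no longer lower. Together the 23 ESCRT and VPS4 members gave 21 measured genes with 12 lower and none higher. Centred, 2 were lower (Vps36 and Chmp2b) and 1 higher (Vps25).

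Retromer is a trimer of VPS35, VPS29 and a VPS26 form that recovers receptors such as the mannose 6-phosphate receptor from endosomes. Of its 4 core genes, 3 were at least 2-fold lower in the ICM. Vps35, the scaffold, had 51.7 and 20.96 (2.46-fold lower, 2.26 to 2.68). Vps29 had 201 and 35 reads, RPKM 9.26 and 1.91, and was 4.84-fold lower (3.37 to 7.14). Vps26a, shown above with its GTCACGTG match, had 6280 and 1762 reads, RPKM 69.2 and 23.1 (3.003-fold, 2.85 to 3.17). Its paralog Vps26b had 1726 and 1392 reads, RPKM 6.93 and 6.63, and an interval that spans 1 (0.957, 0.891 to 1.03). The lengths behind both RPKM values, 2015 and 5534 bases, matched no last exon, so their levels are compared here within a gene only. The length for Vps26b also exceeds its longest GENCODE M21 transcript, 3575 bases. Which reads were counted for Vps26b is thus unclear, and its ratio is uncertain as well.

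**Figure D2:**
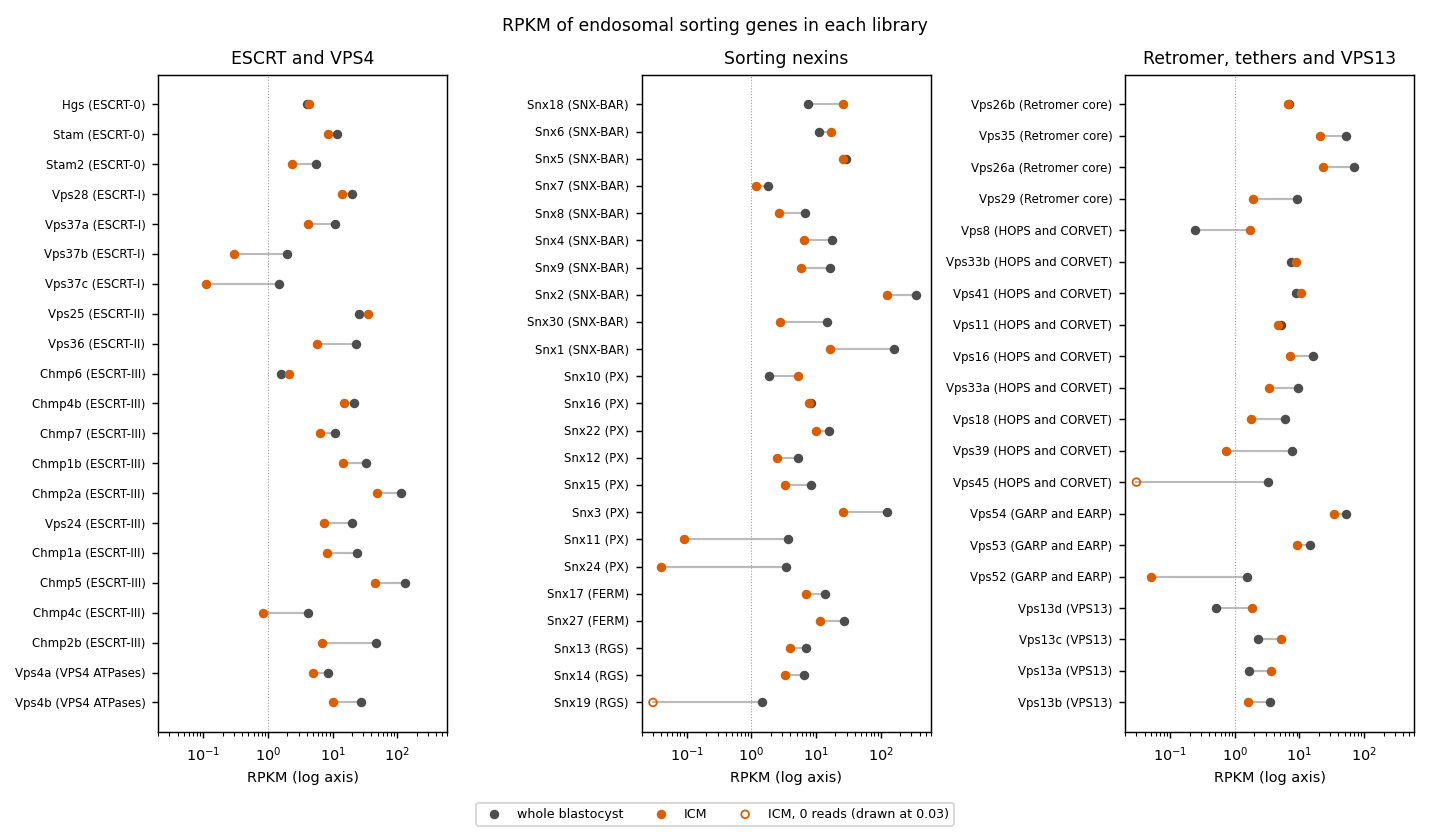
RPKM on a log axis in the whole blastocyst (grey) and the ICM (orange) of the 64 members that reached an RPKM of 1, by complex or domain class; open circles are ICM values of 0 reads, drawn at 0.03. Snx2 is at 356.7 and 124.1, and Snx18, Snx10, Vps8 and 3 of 4 VPS13 genes are among those with the ICM point to the right.

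The sorting nexins with a BAR domain, which senses and bends membrane, held the highest level and, with the pseudocount of 1, the lowest and the highest difference. By plain ratio Snx19, Vps45, Snx24, Snx11, Vps52, Vps37c and Vps39 lay below Snx1, and Vps8 and Vps13d above Snx18. On a scale of equal RPKM sums (TPM-like) Vps45 (-4.27) and Vps8 (3.10) lay outside Snx1 (-2.35) and Snx18 (2.71). Snx2 led all members in both libraries with RPKM values of 356.7 and 124.1, from 7836 and 2297 reads (2.87-fold lower, 2.74 to 3.01). Snx1, its paralog and partner in the retromer tubule coat, had 3213 and 272 reads, RPKM 161.5 and 16.2. It was 9.95-fold lower (8.79 to 11.3), with the lowest difference of the 64 members at this pseudocount (-3.24, or -2.58 centred). The other subunits of the coat are encoded by Snx5, Snx6 and Snx32. Snx5 had 29.3 and 26.3 (ratio 0.895, 0.827 to 0.969) and Snx6 11.2 and 16.9 (1.52, 1.32 to 1.75). Snx32 had no blastocyst read and 9 ICM reads. The summed RPKM of Snx1 and Snx2 was 518.2 and 140.4, whereas that of Snx5, Snx6 and Snx32 was 40.5 and 43.9. The quotient of these sums went from 12.8 to 3.20.

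Snx18 had the highest difference of the members at the same pseudocount. It had 913 and 2641 reads, RPKM 7.57 and 26.0, and was 3.43-fold higher (3.18 to 3.71), a difference of 1.66, or 2.31 centred. Snx18 and Snx9 encode sorting nexins with an SH3 domain that bind dynamin. Snx9 went the other way, with 105 and 31 reads, RPKM 16.5 and 5.80 (ratio 0.350, 0.227 to 0.528). Snx33, the third of this type, had 0 and 2 reads. The length behind the RPKM of Snx9 was 141 bases and matched no last exon, so its level is uncertain. Relative to Snx9, the ratio of Snx18 was 9.80 times higher (6.45 to 15.2).

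Of the remaining BAR members, Snx30, Snx4 and Snx8 were at least 2-fold lower. Snx30 had 3909 and 611 reads, RPKM 14.9 and 2.76 (5.39-fold lower, 4.95 to 5.88). It forms a coat with Snx4 in recycling, which had 17.8 and 6.41 (2.77-fold, 2.42 to 3.18). Snx7, the alternative partner of Snx4, had 40 and 22 reads and an interval spanning 1 (0.653, 0.370 to 1.13). Snx8 had 6.84 and 2.72 (ratio 0.398, 0.325 to 0.483). Of the 10 measured BAR members, 6 were called lower and 1 higher (2 and 2 centred).

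Among the sorting nexins whose main feature is the PX domain, 4 of 8 measured genes were called lower and 1 higher (3 and 1 centred). Snx3, which partners retromer in recycling of the WNT carrier Wntless, had 3982 and 715 reads, RPKM 123.6 and 26.3, and was 4.69-fold lower (4.33 to 5.09). Its close paralog Snx12 had 5.29 and 2.45 (2.16-fold, 1.49 to 3.18). Snx11 and Snx24, both measured through the whole blastocyst alone, were near the counting limit in the ICM, with 290 and 6 reads and 201 and 2 reads. Their RPKM values were 3.65 and 0.0895, and 3.41 and 0.0403. The ratio was 0.0246 (0.00894 to 0.0541) for Snx11 and 0.0118 (0.00142 to 0.0432) for Snx24. Snx15 had 8.36 and 3.26 (0.390).

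Snx10, which acts with the proton pump in endosome acidification, was on the other side, with 152 and 361 reads and RPKM 1.89 and 5.32 (2.82-fold higher, 2.33 to 3.43). Snx16 had 8.37 and 7.78 (0.929, 0.815 to 1.06). Snx22 had 15.97 and 9.89 (0.619, 0.566 to 0.676), and its last exon overlaps the gene of the chaperone cyclophilin B, Ppib, on the opposite strand. Differences within this class thus ranged from -2.19 to 1.13.

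FERM-type nexins read sorting signals in the tails of receptors. Snx27, which recovers PDZ-binding cargo with retromer, had 5562 and 1951 reads, RPKM 27.3 and 11.4 (2.40-fold lower, 2.28 to 2.53). Snx17, which recycles integrins and LDL receptor family proteins through the Commander complex, had 13.6 and 7.10 (1.91-fold, 1.57 to 2.34). RGS-type nexins sit at contacts of the endoplasmic reticulum. Snx13 had 6.91 and 3.99 (0.578, 0.519 to 0.643) and Snx14, from 57 and 24 reads, 6.596 and 3.296 (0.4998, 0.297 to 0.818). Snx19 had 161 reads in the whole embryo but 0 in the ICM. It was at least 36.3-fold lower by the exact interval, and 45.2-fold lower if 3 ICM reads are assumed as a floor. In these 2 classes no member was higher in the ICM apart from Snx25 at 1 and 13 reads, which did not reach an RPKM of 1.

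HOPS and CORVET are tethers of late and early endosomes that share VPS11, VPS16, VPS18 and VPS33A. All 4 shared genes had ratios below 1. Vps11 had 5.15 and 4.62 with an interval spanning 1 (0.898, 0.668 to 1.203). Vps16 had 15.96 and 7.19 (2.22-fold lower, 1.64 to 3.04), Vps18 5.91 and 1.76 (3.36-fold, 2.71 to 4.21) and Vps33a 9.59 and 3.41 (2.81-fold, 2.46 to 3.23). Among the HOPS genes, those of the 2 subunits specific to it differed most from each other. Vps39 had 566 and 45 reads, RPKM 7.65 and 0.722, and was 10.6-fold lower (7.82 to 14.7). Vps41 had 273 and 272 reads, RPKM 8.91 and 10.5 (ratio 1.18, 0.996 to 1.40).

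Vps8, a subunit of CORVET alone, was low in both libraries, with 6 and 37 reads and RPKM 0.238 and 1.75 (7.32-fold higher, 3.06 to 21.2). It passed the level of 1 through the ICM only. Vps33b, which acts with a different partner in apical and integrin sorting, had 7.28 and 8.75 (1.203, 0.955 to 1.51). Vps45, the SM protein of early endosome fusion, had 41 and 0 reads. It was at least 8.95-fold lower by the exact interval, and 11.5-fold lower if the floor of 3 ICM reads is assumed. Of these 9 genes 5 were called lower and 1 higher (2 and 1 centred). Vps39 and Vps45, the 2 lower when centred, passed the level of 1 through the whole blastocyst only.

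GARP returns endosomal vesicles to the Golgi. Vps54, the subunit that defines it, had 3267 and 1817 reads, RPKM 52.6 and 34.7 (0.660, 0.623 to 0.699), and Vps53 had 14.5 and 9.26 (0.637, 0.508 to 0.795). Both lay close to the shift, with centred differences of 0.07 and 0.06. Vps52 had 37 and 1 reads and a wide interval (31.2-fold lower, 5.26 to 1264). Vps51, the remaining subunit, was not analysed here.

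The VPS13 genes, which encode long lipid transfer proteins at membrane contacts, had the highest median of any class (0.85, or 1.504 centred), from few reads. Vps13a had 18 and 33 reads (ratio 2.18, 1.19 to 4.105), Vps13c 35 and 68 (2.31, 1.51 to 3.57) and Vps13d 3 and 9 (3.56, 0.889 to 20.5). Their RPKM values were 1.66 and 3.61, 2.25 and 5.18, and 0.509 and 1.81. None reached a difference of 1 as deposited, and all 3 did when centred. Vps13d was measured through the ICM alone, and the median of the other 3 genes is that of Vps13a, 0.79. Vps13b had 214 and 83 reads, RPKM 3.46 and 1.59, and was 2.172-fold lower (1.68 to 2.83). The lengths of Vps13a and Vps13d matched no last exon. The family thus held members on both sides.

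**Figure D3:**
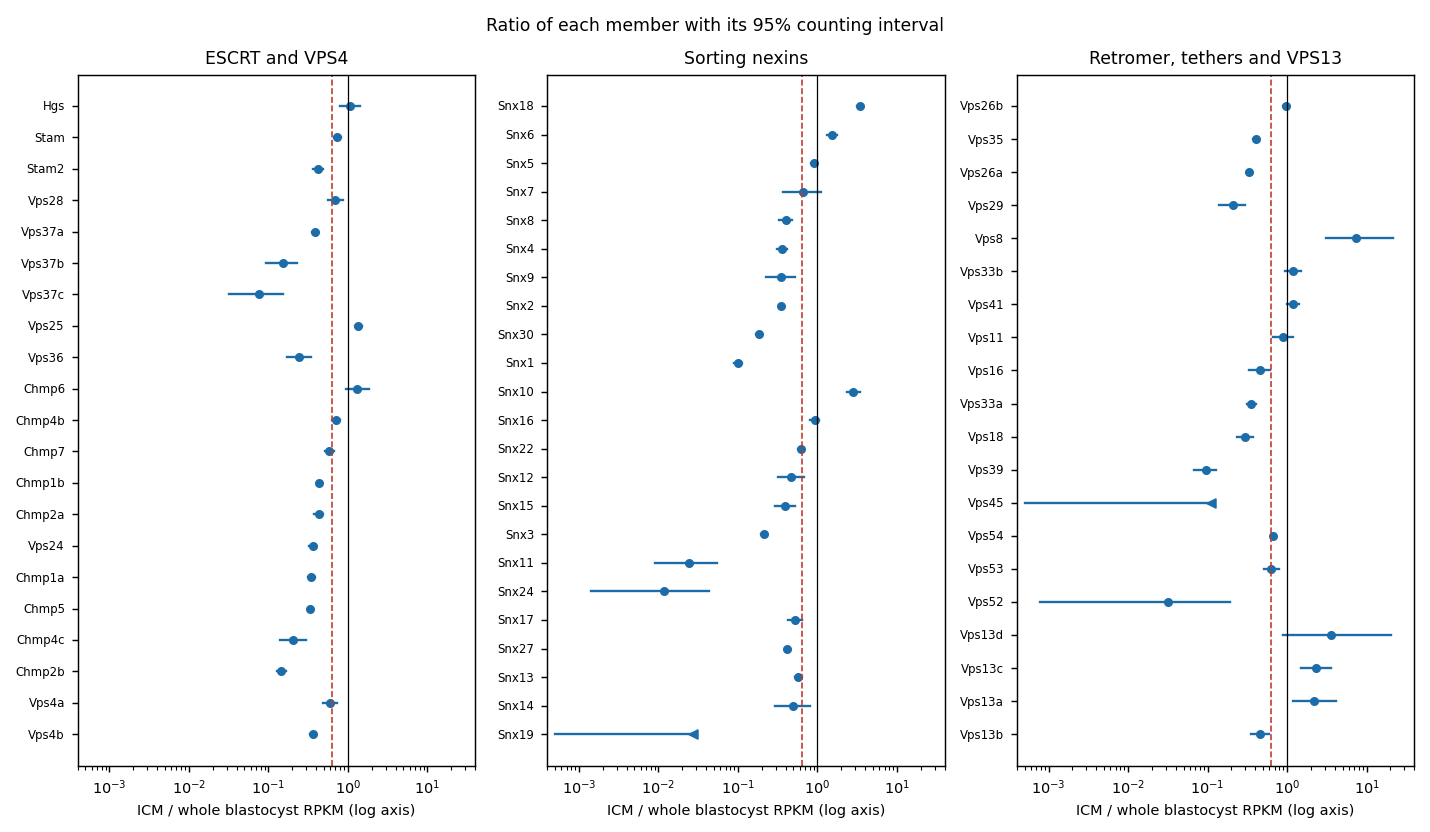
Ratio of ICM to whole-blastocyst RPKM on a log axis with exact 95% counting intervals for the same 64 members. Solid line: ratio of 1; dashed line: shift of the transcriptome (-0.66 on the log2 scale); left-pointing triangles: upper limits of members without an ICM read (Vps45 and Snx19). Snx1, Vps39, Snx11 and Snx24 lie far left and Snx18, Snx10 and Vps8 right of both lines.

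Comparing paralogs removes the scale between the libraries, since the quotient of 2 ratios depends on read counts alone. In all, 10 paralog pairs were compared, each as the higher ratio over the lower, so every quotient is above 1 by construction. All 10 intervals excluded 1, and 6 quotients were 2 or more. Counting intervals are narrow: those of single ratios lay below 1 for 70.4% of all genes and above it for 18.6%. Pairs of other genes were not compared. The largest were Chmp4b over Chmp4c (3.47, 2.37 to 5.21), Snx2 over Snx1 (3.46, 3.03 to 3.97) and Vps33b over Vps33a (3.38, 2.58 to 4.43). Chmp2a over Chmp2b (2.95, 2.47 to 3.53), Vps26b over Vps26a (2.87, 2.63 to 3.14) and Snx12 over Snx3 (2.175, 1.46 to 3.18) followed. The smallest was Chmp1b over Chmp1a at 1.26 (1.11 to 1.44). Chmp4c, of the largest pair, reached an RPKM of 1 in the whole blastocyst alone, and its length matched no last exon. The ratio of Vps26b is uncertain, as given above. Both paralogs had ratios below 1 in each of the 10 pairs except 2. Vps33b was above 1 with an interval that spans it, and Snx6 was above 1 (1.52, 1.32 to 1.75) whereas Snx5 was not.

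Another 4 pairs were chosen after their values were seen. Partners in 1 complex gave quotients of 12.5 (8.78 to 18.1) for Vps41 over Vps39 and 5.498 (3.88 to 7.93) for Vps25 over Vps36. Snx18 over Snx9 gave the 9.80 above, and Snx7 over Snx30 gave 3.52 (1.98 to 6.11).

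**Figure D4:**
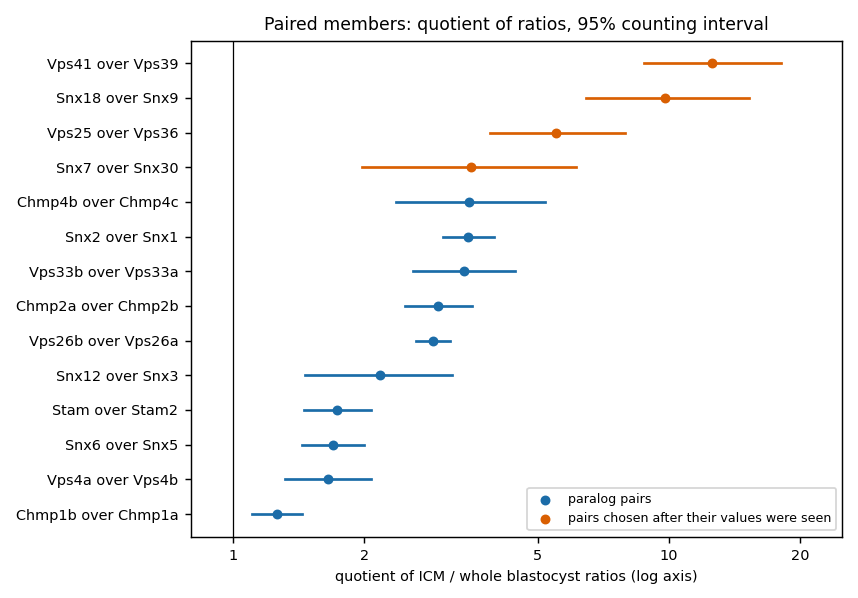
Quotient of the ICM to whole-blastocyst ratios of 2 members, higher over lower, with exact conditional 95% counting intervals on a log axis. Blue: 10 paralog pairs, from 1.26 (Chmp1b over Chmp1a) to 3.47 (Chmp4b over Chmp4c); orange: 4 pairs chosen after their values were seen, up to 12.5 for Vps41 over Vps39.

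Other endosomal genes outside the naming rule were also mostly lower in the ICM library as deposited. The list held 88 symbols for RAB GTPases, ESCRT associates, PI3-kinase, retromer-linked and late endosomal proteins. Some were older and newer names of the same gene, such as Fam125a and Mvb12a. Of these symbols, 76 were found and 70 had an RPKM of 1 in a library. At least 2-fold lower were 45 (64.3%, beside 44.0% of all genes) and higher 3 (4.3%, beside 8.96%), with a median of -1.28 beside -0.84. Centred, 15 were lower (21.4%, beside 20.5%) and 6 higher (8.6%, beside 16.9%). The 6 lowest at an RPKM of 5 or more began with Rab4a, a fast recycling GTPase, at 13.9 and 0.265 from 373 and 6 reads. Pik3c3, the PI3-kinase VPS34 that makes the lipid bound by PX domains, followed at 12.6 and 0.399 from 225 and 6 reads. Its regulatory subunit Pik3r4 had 30.2 and 9.23. Rab5c had 25.4 and 2.33 and Eea1, the early endosome tether, 11.4 and 1.61. Cd63, the late endosome tetraspanin, had 1408 and 234.4, and Mtm1, a phosphatase that removes the same lipid, 7.73 and 0.912.

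The 6 highest at an RPKM of 5 or more were Gga3, an adaptor of Golgi to endosome sorting, with 2.99 and 7.77 (2.60-fold higher, 2.21 to 3.07), Commd6 with 4.91 and 8.44, Ccdc53, a WASH complex subunit, with 11.2 and 17.97, Rab7l1 with 7.32 and 9.19, Vac14 with 7.36 and 8.91 and Commd1 with 9.93 and 10.7. The other 2 genes called higher stayed under that level, Commd9 with 9 and 48 reads (RPKM 0.281 and 1.78) and Ehd3 with 0 and 223 (RPKM 0 and 2.70). Commd1 and Commd6 belong to the Commander complex that works with Snx17, whose genes lay on both sides. Commd3, Commd4, Commd7, Commd10, Ccdc22 and Ccdc93 were called lower, such as Commd3 with 27.9 and 9.75. Commd2, Commd5 and Commd8 were called neither lower nor higher, and Commd9 was called higher. By the plain ratio Commd5 was past 2-fold (0.371, 0.259 to 0.522), with a difference of -0.96 after the pseudocount. The intervals of Rab7l1, Vac14 and Commd1 spanned a ratio of 1. The retromer cargo genes Igf2r and M6pr had 26.3 and 16.9, and 31.7 and 17.5, both within 2-fold.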

How the data were processed

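RNA of 2 samples was extracted with a PicoPure kit, amplified with the NuGEN Ovation system and made into SOLiD fragment libraries, per the labels' protocols. For each gene symbol and library the authors deposited a read count and an RPKM. The genome build named is mm9, per the submitters' processing notes. Aligner, annotation, strand use and handling of multi-mapped reads remain unknown (not given in the sources used here).

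Symbols were trimmed of spaces and matched to the naming rule. All 75 matched a current or older RefSeq symbol. Vps24 was placed with ESCRT-III under its current symbol. From the deposited RPKM, log2 differences (pseudocount 1, filter RPKM 1) were computed, and from the deposited counts exact conditional 95% intervals, with scipy 1.17.1. With 1 library per group no test was made and depth sets only the counting error. The intervals were tested on simulated data. Last exons were compared with GENCODE M21 lengths, and near-identical copies were sought with blastn 2.17.0 (95% identity over 50% of the last exon). Members with an RPKM of 5 or more, or past 2-fold, are named. The members and lists were chosen with earlier results of these data known.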

Additional observations from a re-analysis of the deposited data

How the results depend on the processing

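No paired analysis was possible because there was 1 library in each group, and for the same reason no library could be left out. The counts depended mainly on the scale between the libraries. Of the members, 33 were called lower and 3 higher as deposited, 10 and 8 when centred, 15 and 12 on a TPM-like scale, and 15 and 11 scaled to the reads on listed genes. A pseudocount of 0.1 gave 36 and 6 (51.2% and 11.5% of all genes), and one of 5 gave 15 and 1 (19.6% and 2.46%). Requiring an RPKM of 5 in each library left 17 lower and 1 higher of 34 members, beside 34.5% and 2.39% of all genes. The background shares under the 3 scalings were 20.5%, 29.5% and 29.9% lower and 16.9%, 22.0% and 21.3% higher. The median of -1.06 became -0.40 (centred), -0.24 (TPM-like), -0.27 (listed reads), -0.51 (pseudocount 5) and -0.78 (no filter). Leaving out members whose length matched no last exon, chosen after seeing the data, gave a median of -0.85 with 22 lower and 3 higher. Without members that have a copy or overlap, also chosen after seeing the data, 26 were lower and 3 higher. For these exclusions the shares of all genes were not computed. Neither count can therefore be read as above or below the background. With an RPKM of 1 in each library, the third such choice, the median was -0.85, and 1 of the other endosomal genes stayed higher. For the other endosomal genes, 45 lower and 3 higher became 15 and 6, 21 and 10, and 21 and 9 under the 3 scalings, 25 and 0 with a pseudocount of 5, and 17 and 0 with an RPKM of 5 in each library. The interval lay above the median ratio for 19 members, against 7 above a ratio of 1, and below it for 35 (beside 33.5% and 51.6% of all genes). The median of the HOPS and CORVET class, in which Vps33b and Vps45 were counted, was -1.05. It was 0.22 over its members with an RPKM of 5 in each library, a filter that removes low ICM values. Those were only Vps16 (-1.05), Vps41 (0.22) and Vps33b (0.24), the last of which acts with a different partner. Of 58 named members, 47 kept the sign of their difference when centred, 44 on the TPM-like scale, 45 scaled to listed reads, and 58 with either pseudocount. Their call was kept by 32, 35 and 35 under the 3 scalings, 55 with a pseudocount of 0.1 and 38 with one of 5.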
